A study of Mus musculus with 6 samples.

Results

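The genes of the respiratory chain and the ATP synthase were followed in DNT cells, T cells that carry CD3 but neither CD4, CD8 nor NK1.1. They were taken by symbol: protein-coding genes whose names begin with Ndufa, Ndufb, Ndufc, Ndufs, Ndufv, Sdha to Sdhd, Uqcr, Cox4 to Cox8, Atp5, mt-Nd, mt-Co, mt-Cytb or mt-Atp. Of 26128 genes listed, 108 belonged to this set. These were 83 nuclear subunit genes and 12 nuclear assembly factor genes on 19 chromosomes, and the 13 protein genes of the mitochondrial genome. Both groups were DNT cells made in vitro from CD4+ T cells of wild-type adult C57BL/6 mice and sorted as CD3+NK1.1-CD4-CD8-. The study's methods name spleens and lymph nodes as the source of these CD4+ T cells. Before the sort, the cells of both groups had been cultured with mature dendritic cells of another mouse strain and a recombinant interleukin. The control group (n = 3 libraries) was restimulated for 48 h with anti-CD3/CD28 beads alone, and the IL-33 group (n = 3) with the same beads and IL-33, a cytokine of the IL-1 family, at 50 ng/ml. The cells were therefore activated in both groups, and the comparison asks what IL-33 added. Neither the labels nor the methods say whether the 3 libraries of a group came from separate mice or cultures, so p-values measure only the spread between these libraries, which may be technical.

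Complex I takes electrons from NADH and complex II takes them from succinate. Complex III and cytochrome c pass them on to complex IV, which reduces oxygen, and the proton gradient built on the way drives the ATP synthase. Complex II is wholly nuclear, whereas the other complexes join nuclear subunits with subunits made inside the mitochondrion. T cells raise both glycolysis and respiration when they are activated.

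The libraries held 20256342 to 22336050 counts, and a total of 3 counts, taken as the limit of detection, stood for 0.135 to 0.148 CPM, the count relative to the library's total after TMM scaling. The 8 T cell markers were present in every library and summed to 3024 to 3225 CPM, most of it Thy1 and Cd3g. Of these 8, Cd3g was higher with IL-33 (12.5%, against 13.6% of all genes), and Lck, Cd2 and Cd5 were lower (37.5%, against 13.9%). Cd8a RNA was nevertheless present at 545 ± 13.6 CPM (SD, n = 3) in controls and 400 ± 9.15 CPM with IL-33, although the cells were sorted as CD8-. Of the 4 genes of the gate, Cd8a, Cd4 and Klrb1c (NK1.1) were lower with IL-33 (75%, against 13.9% of all genes). Cd8b1 was higher (25%, against 13.6%). The summed level of dendritic and myeloid markers ran from 68.6 to 71.8 CPM in controls and from 41.9 to 46.5 CPM with IL-33. Of the 4 tested, 1 was lower (25%, against 13.9% of all genes). This was Itgax, which went from 54.6 ± 2.07 to 26.0 ± 1.59 CPM. The others did not pass, with Xcr1 at 11.5 and 12.4 CPM, Zbtb46 at 2.89 and 2.98 CPM and Cd14 at 0.99 and 1.60 CPM. Flt3, Csf1r, Lyz2 and Adgre1 were too low to be tested, and Clec9a was at 0 counts. Mast cell and basophil markers summed to 14.9 to 19.7 CPM and 10.2 to 13.6 CPM, with Mcpt4 at 0. B cell markers summed to 4.79 to 6.35 CPM over all libraries, with Ms4a1 and Pax5 at 0, and erythroid markers summed to at most 0.456 CPM. The part of these other markers in the results was not tested. In bulk RNA, fewer cells of a type and less RNA per cell cannot be told apart.

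Of the 108 members, 101 had enough counts to be tested and 7 did not. With IL-33, 20 members were higher and 0 lower in the quasi-likelihood test of edgeR, at an adjusted p under 0.05 (Benjamini-Hochberg, 14671 genes). Of all genes, 27.5% changed in either direction. Members higher made up 19.8% of those tested, against 13.6% of all genes tested. By origin they were 14 of 79 nuclear subunits (17.7%), 5 of 11 mitochondrial subunits (45.5%) and 1 of 11 assembly factors (9.09%). No member was lower, against 13.9% of all genes, and the count of members lower at an unadjusted p under 0.05 was also 0. DESeq2 and limma-voom gave 0 lower members too. The changes were small. The fold changes of the 20 members ran from 1.06 to 1.17, and the median log2 fold change among them was 0.16, against 0.27 for all genes called higher. None also passed the study's second threshold, a fold change of 1.5, which 4.87% of all genes passed together with the first.

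Members were abundant genes, with a median control level of 45.8 CPM against 18.3 CPM over all genes tested, and abundant genes carry smaller errors. Of the 70 members whose mean reached 20 CPM, 20 were higher (28.6%) and 0 lower. For all genes above that level the shares were 19.8% higher and 20.2% lower. The log2 fold change was above 0 in 68 members and below 0 in 33 (67.3% positive, against 49.9% of all genes). In 24 members every IL-33 library was above every control library (23.8%, against 19.4% of all genes), and in 3 members every IL-33 library was below (2.97%, against 19.5%). The median log2 fold change was 0.05 over all members, 0.05 over nuclear subunits, 0.11 over mitochondrial subunits and -0.00063 over all genes tested.

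**Figure D1:**
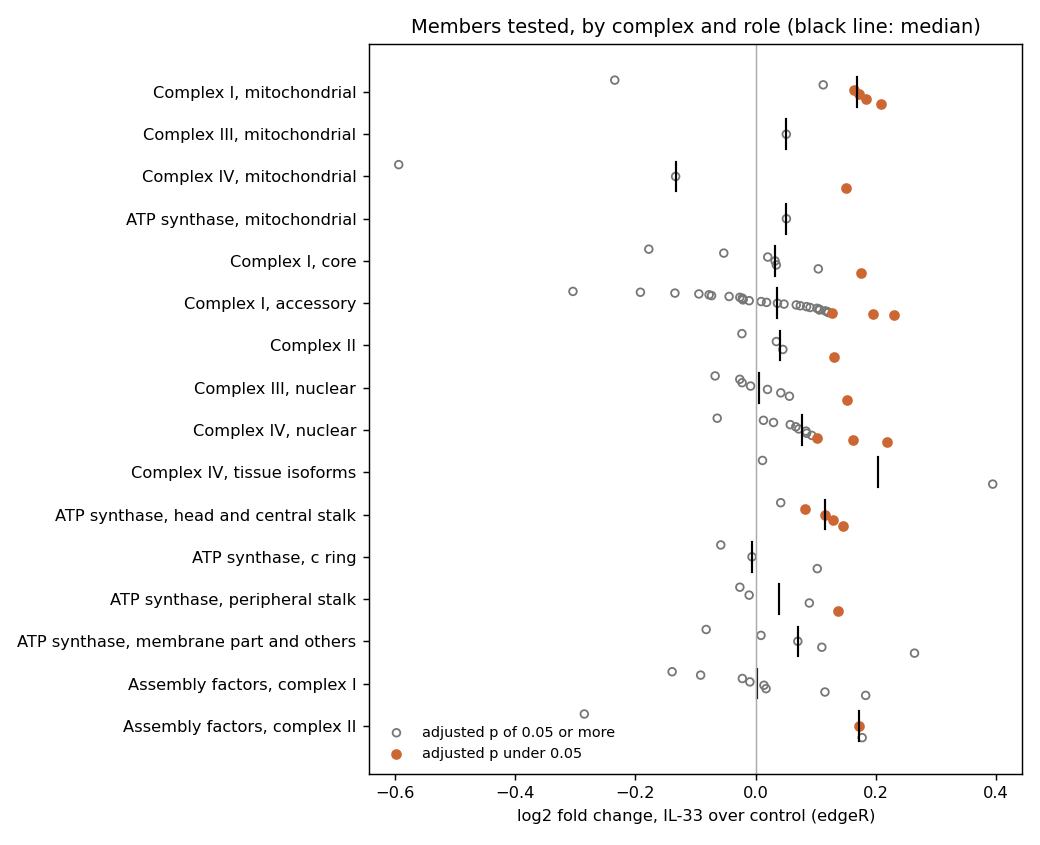
Log2 fold change of IL-33 over control (horizontal axis, edgeR) for the 101 members tested, one point each, by complex and role; filled points have an adjusted p under 0.05 and black lines are medians. All 20 filled points lie to the right of 0, and 4 of the 5 genes of the ATP synthase head and central stalk are among them.

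Before the values of the mitochondrial genes, their sequences need to be shown, because many of them have a near-identical copy in the nuclear genome. Mouse chromosome 1 holds a run of annotated pseudogenes copied from mitochondrial DNA (chr1:24611535-24616197, GRCm38, minus strand), and a read that fits both places can be split between them or dropped. For every member, the share of its 50-base windows that also occur in another annotated transcript was computed. It reached 100% for mt-Co2, 99.9% for mt-Co3, 99.5% for mt-Atp6, 98.8% for mt-Nd4l and 98.0% for mt-Nd3. It was 62.2% for mt-Nd4, 51.1% for mt-Co1, 8.19% for mt-Nd2 and 7.61% for mt-Nd5, and 0 for mt-Nd1, mt-Nd6, mt-Cytb and mt-Atp8. Stretches of 80 bases are given for 1 gene without a mismatch to its copy, for 1 gene with a single mismatch and for 1 gene with a more distant copy. They lie at chrM:7313-7392, chrM:9459-9538 and chrM:4452-4531 on the plus strand of GRCm38, and each copy is written in the same direction. Capitals mark bases that differ.
mt-Co2: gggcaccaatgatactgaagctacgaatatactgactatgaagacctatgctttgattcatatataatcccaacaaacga
Gm28661: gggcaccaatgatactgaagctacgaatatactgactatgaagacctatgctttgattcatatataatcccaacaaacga
mt-Nd3: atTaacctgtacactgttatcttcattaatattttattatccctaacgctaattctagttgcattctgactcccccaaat
Gm28438: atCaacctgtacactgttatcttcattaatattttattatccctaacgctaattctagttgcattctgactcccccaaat
mt-Nd2: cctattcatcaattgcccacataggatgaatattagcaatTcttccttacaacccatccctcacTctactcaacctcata
Gm13339: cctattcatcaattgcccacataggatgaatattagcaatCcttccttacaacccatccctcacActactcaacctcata

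Over their whole aligned length, mt-Co2 and Gm28661 shared 681 bases with 0 mismatches. mt-Nd3 and Gm28438 shared 345 bases with 1 mismatch, and mt-Nd2 and Gm13339 shared 510 bases with 17 mismatches. The 5 genes with at least 97% shared windows were listed at 2.73 to 94.9 TPM in controls (the count per base of gene length, relative to the library's sum). The 7 genes with fewer than 70% shared windows and a testable level stood at 1033 to 20419 TPM. The remaining gene, mt-Atp8, shared no window with another annotated transcript and had only 0 to 3 counts in any library. It lies between mt-Co2 and mt-Atp6, whose copies both lie in the run on chromosome 1. Whether that run also holds a copy of mt-Atp8 outside the annotated transcripts was not searched. mt-Atp8 and mt-Atp6 overlap on the same strand. The copies themselves carried counts: Gm10925, the copy of mt-Atp6, had 503, 448 and 526 counts in controls and 448, 495 and 904 with IL-33, more than mt-Atp6 itself. Whether the shared sequence lowered the counts of these 5 genes was not tested, and their values are given as listed.

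**Figure D2:**
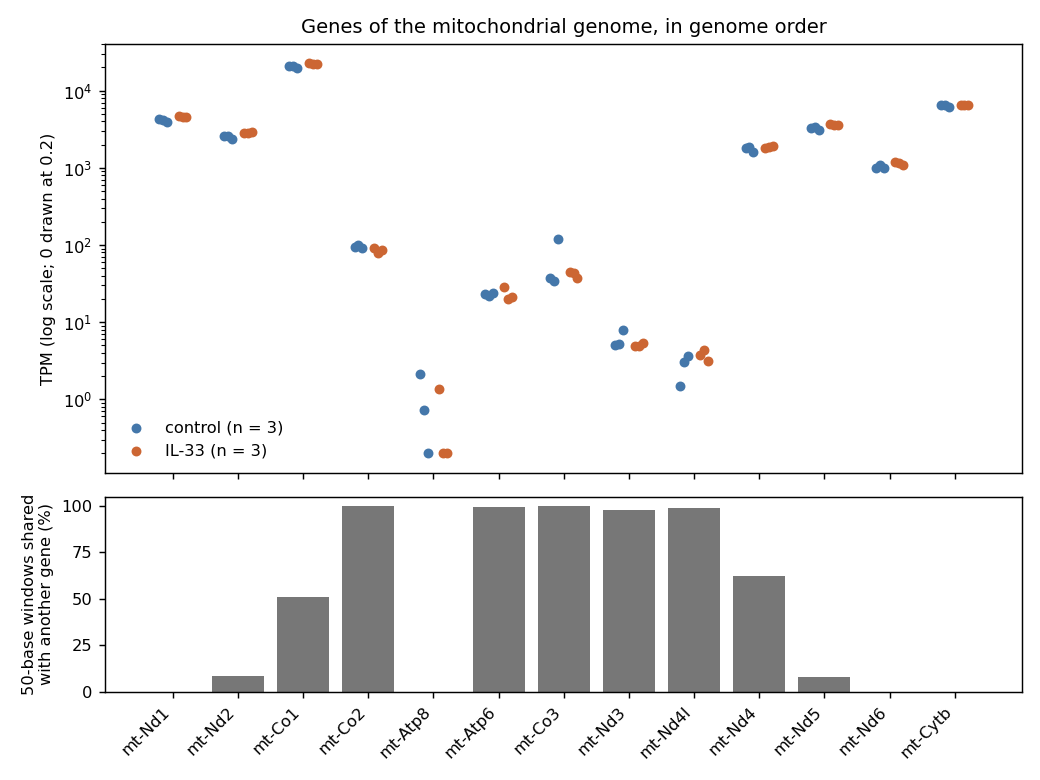
Upper panel: level in TPM (log scale) of the 13 mitochondrial protein genes in every library, in genome order; zeros are drawn at 0.2. Lower panel: percent of each gene's 50-base windows found in another annotated transcript. The 5 genes at 98.0% or more, and mt-Atp8, lie at or below 118 TPM in every library, and the other 7 lie at or above 1000 TPM.

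The 7 readily counted mitochondrial genes all had a positive log2 fold change, against 49.9% of all genes. These genes lie on the same genome, and whether they vary separately was not tested. The test called 5 of the 7 higher (71.4%, against 13.6% of all genes and 19.8% of those at 20 CPM or more). They were mt-Co1, the catalytic subunit of complex IV, and mt-Nd1, mt-Nd2, mt-Nd5 and mt-Nd6, membrane subunits of complex I. mt-Co1 was the most abundant member, at 10456, 10477 and 10125 CPM in controls and 11494, 11377 and 11613 CPM with IL-33. All 3 IL-33 libraries stood above all controls, and the log2 fold change was 0.15 (SE 0.016, adjusted p = 2.44e-13, edgeR quasi-likelihood test, Benjamini-Hochberg).

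The rise of the complex I genes was of the same order. mt-Nd2 had 876, 875 and 814 CPM in controls and 978, 984 and 1000 CPM with IL-33 (log2 fold change 0.21, SE 0.025, edgeR adjusted p = 2.51e-11). mt-Nd5 had 1916, 2004 and 1881 CPM against 2207, 2180 and 2200 CPM (0.18, SE 0.021, edgeR adjusted p = 6.19e-12). mt-Nd1 had 1319, 1312 and 1235 CPM against 1471, 1438 and 1446 CPM (0.17, SE 0.023, edgeR adjusted p = 1.31e-09). In these 3 genes the groups did not overlap, and the third control library was the lowest each time. mt-Nd6, the only protein gene on the other strand of the mitochondrial genome, had 168, 186 and 174 CPM in controls and 204, 196 and 191 CPM with IL-33, again without overlap (0.16, SE 0.036, edgeR adjusted p = 0.000158). Its end overlaps that of mt-Nd5, and whether the counting used the strand is not given in the sources used here.

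mt-Cytb, the cytochrome b of complex III, moved less. It had 2397, 2445 and 2332 CPM in controls and 2491, 2471 and 2471 CPM with IL-33, so that the groups did not overlap, but the log2 fold change of 0.05 (95% interval 0.01 to 0.09) missed the threshold with an adjusted p of 0.0533 in edgeR. Without the second control library its adjusted p in edgeR was 0.02. mt-Nd4, a membrane subunit of complex I, had 792, 836 and 725 CPM against 834, 837 and 872 CPM, with an overlap (log2 fold change 0.11, edgeR adjusted p = 0.165). Without the second control library, the highest of its group, the log2 fold change of mt-Nd4 was 0.16 and the edgeR adjusted p 4.66e-05.

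None of the 4 tested genes with at least 97% shared windows passed the test. mt-Co3, a core subunit of complex IV, was listed at 200, 181 and 675 counts in controls and 246, 238 and 221 with IL-33. The third control library stood apart from the other 5. mt-Co2, which takes electrons from cytochrome c, was listed at 373 to 461 counts, mt-Atp6, part of the proton channel of the ATP synthase, at 93 to 140, and mt-Nd3 at 12 to 20, with overlapping groups in each. mt-Nd4l, at 3 to 9 counts, and mt-Atp8 were not tested.

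Summed over the 13 genes, the mitochondrial genome gave 1.81%, 1.82% and 1.74% of all counts in the control libraries and 1.96%, 1.94% and 1.97% with IL-33. Every IL-33 library was above every control. Per length, the sum was 39593 ± 1360 TPM in controls and 43095 ± 253 TPM with IL-33 (SD, n = 3), 8.84% higher. mt-Co1 made up 51.6% ± 0.353 of this sum in controls and 51.9% ± 0.201 with IL-33, with overlapping groups, and the other 12 genes together were 8.04% higher. The sums take the 5 genes with at least 97% shared windows and mt-Atp8 as listed, so these percentages describe the listed counts. For 3 libraries against 3, the smallest p an exact permutation test can give is 0.1, and no p is given for any sum.

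The 83 nuclear subunits gave 0.602%, 0.614% and 0.615% of all counts in controls and 0.635%, 0.638% and 0.621% with IL-33, 3.44% higher without overlap. Per length they gave 10799, 10927 and 10851 TPM in controls and 11276, 11316 and 10837 TPM with IL-33, a mean 2.62% higher with overlapping groups: the third IL-33 library lay among the controls. In summed CPM they were 4.70% higher. The ratio of mitochondrial to nuclear summed TPM was 3.75, 3.69 and 3.50 in controls and 3.85, 3.79 and 3.97 with IL-33. It was higher in all 3 IL-33 libraries than in any control. The ratio, too, takes the mitochondrial genes with shared windows as listed. Among the nuclear parts of the complexes, the sum was higher without overlap for the ATP synthase (2916 ± 25.9 against 3033 ± 26.8 TPM, 4.02% higher) and for complex II (539 ± 4.95 against 557 ± 12.3 TPM, 3.28% higher). Complex IV was 3.11% higher, complex I 1.16% and complex III 0.699%, each with overlap. In summed CPM, complex I was 3.81% and the ATP synthase 6.01% higher.

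**Figure D3:**
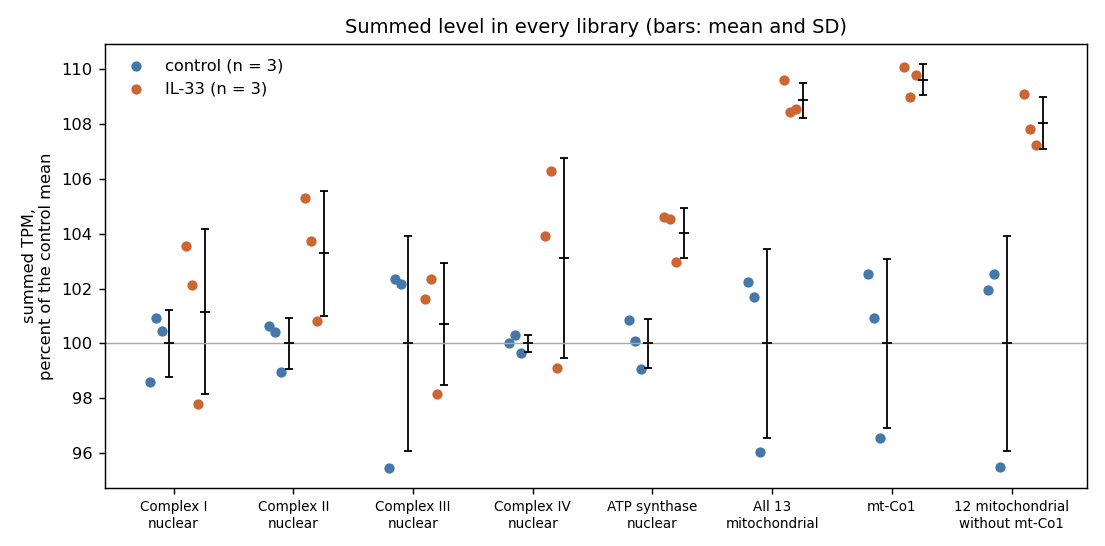
Summed TPM of each complex's nuclear subunits, of the 13 mitochondrial genes, of mt-Co1 alone and of the other 12, in every library, as percent of the control mean (the vertical axis does not start at 0); bars are the mean and SD of 3 libraries. The IL-33 libraries lie above all controls for complex II, the ATP synthase and the 3 mitochondrial sums, and overlap the controls for complexes I, III and IV.

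Of the 17 nuclear genes of the ATP synthase, 5 were higher (29.4%, against 13.6% of all genes). In the catalytic head and central stalk, where ATP is made, 4 of 5 genes were higher (80%). Of all genes at 20 CPM or more, 19.8% were higher. The genes of the head and central stalk were also more abundant, with a median of 192 CPM in controls against 17.6 CPM for the membrane part. A difference between parts was not tested. Atp5d, the delta subunit of the central stalk (chr10:80138632-80145818, GRCm38), had 177, 186 and 195 CPM in controls and 203, 208 and 205 CPM with IL-33. All IL-33 libraries were above all controls, and the log2 fold change was 0.14 (SE 0.035, edgeR adjusted p = 0.000621). Atp5b, the catalytic beta subunit, was the nuclear member with the highest CPM, at 653, 644 and 634 CPM against 700, 705 and 687 CPM (0.12, SE 0.026, edgeR adjusted p = 0.000182). Atp5c1, the rotating gamma subunit, had 189, 195 and 191 CPM against 203, 208 and 217 CPM (0.13, SE 0.034, edgeR adjusted p = 0.00209). Both were without overlap. Atp5a1, the alpha subunit and the highest of the complex per length at 526 TPM, had 550, 539 and 535 CPM against 581, 563 and 576 CPM. Its log2 fold change of 0.08 (SE 0.027, edgeR adjusted p = 0.0135) was the smallest of all members called. The adjusted p of Atp5a1 in edgeR was 0.0686 without the third control library and 0.0716 without the first IL-33 library. Atp5e, the small epsilon subunit, was at 0.04 with overlap (edgeR adjusted p = 0.56).

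Outside the head, 1 of 12 nuclear ATP synthase genes was higher, against 13.6% of all genes. This was Atp5f1, the b subunit of the peripheral stalk, with 209, 204 and 204 CPM in controls and 226, 227 and 225 CPM with IL-33 (0.14, SE 0.033, edgeR adjusted p = 0.000678), where the groups stood far apart for their spread. The c subunit of the rotor ring is made from 3 genes that code for the same mature protein. Atp5g2 had 87.9, 96.1 and 89.3 CPM against 98.1, 97.8 and 97.4 CPM, without overlap but short of the threshold (0.10, edgeR adjusted p = 0.0566). The adjusted p of Atp5g2 was 0.0152 without the second control library. Atp5g3 had 126, 124 and 131 CPM against 121, 123 and 122 CPM, below all controls (-0.06, edgeR adjusted p = 0.284), and Atp5g1, at 27.6 TPM the lowest of the 3, was at -0.01 with overlap. The c ring genes thus did not share a direction.

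Complex I, with 36 nuclear genes, had 4 genes higher (11.1%, against 13.6% of all genes), and its median log2 fold change was 0.03. Ndufv3, a small accessory subunit of the NADH-binding module (chr17:31520115-31531331, GRCm38), had the largest called change of all members: 70.2, 75.0 and 80.2 CPM in controls and 86.6, 96.3 and 81.7 CPM with IL-33 (0.23, SE 0.051, edgeR adjusted p = 0.000701). The lowest IL-33 library lay just above the highest control. Ndufa10, an accessory subunit, had 81.8, 87.4 and 85.0 CPM against 103, 94.4 and 93.7 CPM (0.20, SE 0.043, edgeR adjusted p = 0.000136). Ndufv2, the core subunit that holds an iron-sulfur cluster beside Ndufv1, had 48.4, 48.6 and 48.8 CPM against 55.1, 53.2 and 56.4 CPM (0.18, SE 0.054, edgeR adjusted p = 0.00881). In both, all IL-33 libraries were above all controls. Ndufa13, an accessory subunit also known as GRIM-19, had 71.0, 70.7 and 75.1 CPM against 79.5, 81.7 and 75.7 CPM (0.13, SE 0.045, edgeR adjusted p = 0.0231). The call on Ndufa13 was lost without any of 4 libraries: the edgeR adjusted p was 0.0759 and 0.106 without the first and second controls, and 0.0727 and 0.139 without the first and second IL-33 libraries. Ndufv2, Ndufa10, Ndufa13 and the other members called outside the naming rule (Atp5b, Atp5c1, Atp5f1, Cox5b and Cox7c) are named because they were called, after their values had been seen.

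The other 32 complex I genes did not pass, 18 with positive and 14 with negative values. Ndufb11, an accessory subunit of the membrane arm and a gene of the X chromosome, was lower in all IL-33 libraries, at 58.2, 60.7 and 59.3 CPM against 57.4, 56.4 and 55.6 CPM, without passing the test (-0.07, edgeR adjusted p = 0.311). Ndufb11 was picked after its values had been seen.

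The subunits of complex II also work as succinate dehydrogenase of the citric acid cycle. Of its 4 genes, 1 was higher, Sdhd (25.0%, against 13.6% of all genes). It anchors the enzyme in the membrane, and had 85.5, 87.4 and 87.0 CPM in controls and 94.2, 96.5 and 93.8 CPM with IL-33, without overlap (0.13, SE 0.042, edgeR adjusted p = 0.0112). The other membrane anchor, Sdhc, was at 0.03 (edgeR adjusted p = 0.677). The flavoprotein Sdha was at 0.05 (edgeR adjusted p = 0.346) and the iron-sulfur subunit Sdhb at -0.02 (edgeR adjusted p = 0.744), each with overlapping groups. The 4 subunits, which form the enzyme in equal numbers, stood at 156 (Sdha), 115 (Sdhb), 52.9 (Sdhc) and 214 TPM (Sdhd) in controls.

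In complex III, Uqcrc2, a core subunit, was the 1 of 8 nuclear genes that was higher (12.5%, against 13.6% of all genes). It had 104, 107 and 104 CPM in controls and 114, 121 and 115 CPM with IL-33, without overlap (0.15, SE 0.040, edgeR adjusted p = 0.00181). Its partner Uqcrc1 could not be read in the same way. It had 46.5, 67.5 and 99.4 CPM in controls and 66.9, 87.3 and 55.9 CPM with IL-33. Its coefficient of variation was 37.5% and 22.7% in the 2 groups, against medians of 4.19% and 4.27% over nuclear subunits. The 95% interval of the log2 fold change of Uqcrc1 ran from -1.01 to 0.96. Uqcrc1 was singled out after its values had been seen. Uqcrh, the hinge protein and the highest nuclear gene of the complex at 272 TPM in both groups, was at 0.02 (edgeR adjusted p = 0.775).

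In complex IV, 18 nuclear genes were listed and 14 tested. Of these, 13 had positive values and 3 were higher (21.4%, against 13.6% of all genes). Cox7a2, the widely expressed form of subunit 7a (chr9:79755361-79759878, GRCm38), had 56.2, 63.7 and 58.1 CPM in controls and 65.6, 77.6 and 63.9 CPM with IL-33 (0.22, SE 0.062, edgeR adjusted p = 0.00922). The groups came close without overlap, and the second IL-33 library was the highest. Without that library the log2 fold change of Cox7a2 was 0.13 (edgeR adjusted p = 0.0939), and without the third control the adjusted p was 0.0638. Cox7c had 74.6, 80.5 and 83.3 CPM against 93.5, 92.3 and 80.9 CPM, with overlap (0.16, SE 0.047, edgeR adjusted p = 0.00622). Cox5b, a zinc-binding subunit on the matrix side, had 110, 114 and 122 CPM against 126, 124 and 121 CPM, also with overlap (0.10, SE 0.040, edgeR adjusted p = 0.0458). Of the 20 members called, Cox7c and Cox5b were the 2 whose groups overlapped. They share 27.9% and 25.9% of their 50-base windows with other transcripts. Called members without overlap share windows too: mt-Co1 51.1%, Ndufa13 28.5% and Uqcrc2 24.8%. The edgeR adjusted p of Cox7c was 0.0616 without the first control, 0.0822 without the first IL-33 library and 0.0508 without the second. That of Cox5b was 0.26 and 0.142 without the first and second controls, and 0.146 and 0.0834 without the first and second IL-33 libraries.

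Cox7a2l went the other way from Cox7a2, with 206, 212 and 206 CPM in controls and 200, 202 and 195 CPM with IL-33. All IL-33 libraries were lower, but the value of -0.06 did not pass (edgeR adjusted p = 0.16). Cox8a, at 856 TPM the highest nuclear member, had 174, 172 and 176 CPM against 173, 177 and 176 CPM (95% interval of the log2 fold change -0.06 to 0.08). Cox6a1, the next highest at 628 TPM, was at 0.08 (edgeR adjusted p = 0.0899), and its adjusted p was 0.0203 without the third IL-33 library. Cox4i1, Cox6b1, Cox7b and Ndufa4, further subunits of complex IV in most tissues, were at 0.06, 0.09, 0.08 and 0.07 and did not pass (edgeR adjusted p = 0.316, 0.0914, 0.143 and 0.637).

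**Figure D4:**
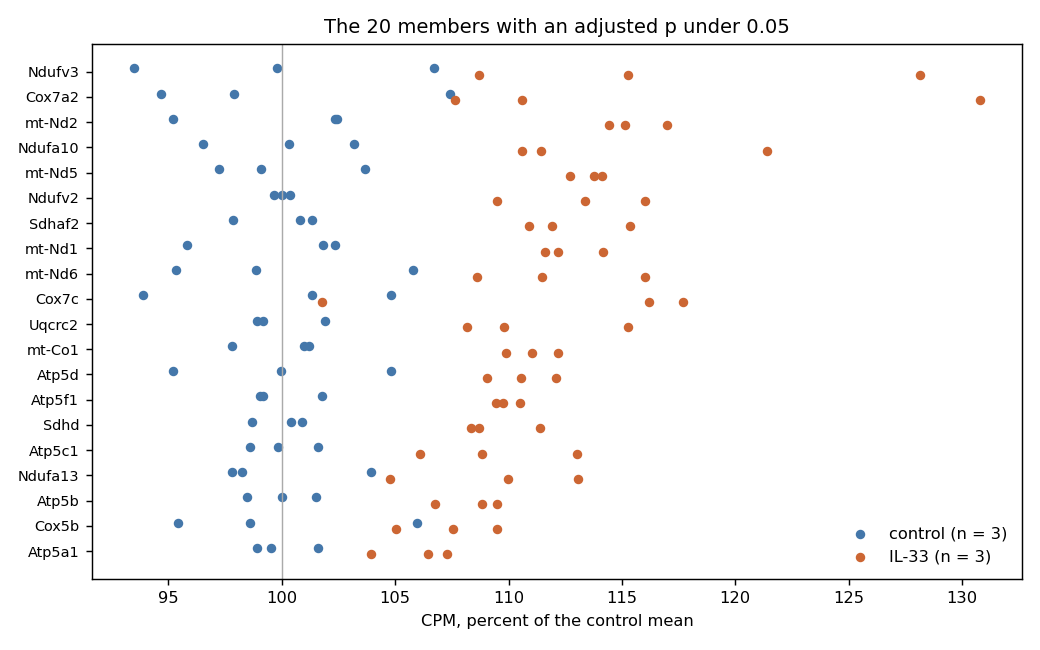
CPM of the 20 members with an adjusted p under 0.05 in every library, as percent of each gene's control mean (the horizontal axis does not start at 0), sorted by log2 fold change. Control and IL-33 points overlap for Cox7c and Cox5b and for none of the other 18.

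Several subunits of complex IV exist in a form found in most tissues and in another form known from muscle, lung, testis or low oxygen. The widely used forms dominated in both groups. Cox4i1 stood at 216 TPM in controls, while Cox4i2, known from lung and from low oxygen, had 0 counts in every control and 0, 1 and 1 with IL-33. Cox8a had 856 TPM, while the muscle form Cox8b had 0 counts in every control and 0, 5 and 0 with IL-33. Ndufa4 had 42 TPM, while Ndufa4l2, known as a target of the hypoxia response, had 0, 1 and 1 counts in controls and 1, 0 and 2 with IL-33. These genes stood at or near the limit of detection in both groups, so no change could be read at this depth.

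The remaining forms were low but counted. The muscle form Cox6a2 had 1.85 TPM against 628 TPM of Cox6a1 in controls, the muscle form Cox7a1 had 9.20 TPM against 191 TPM of Cox7a2, and the testis form Cox6b2 had 5.39 TPM against 359 TPM of Cox6b1. Cox6a2 was not tested. Cox7a1 was at a log2 fold change of 0.01 (edgeR adjusted p = 0.984) and Cox6b2 at 0.39 (edgeR adjusted p = 0.247), both with overlapping groups.

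**Figure D5:**
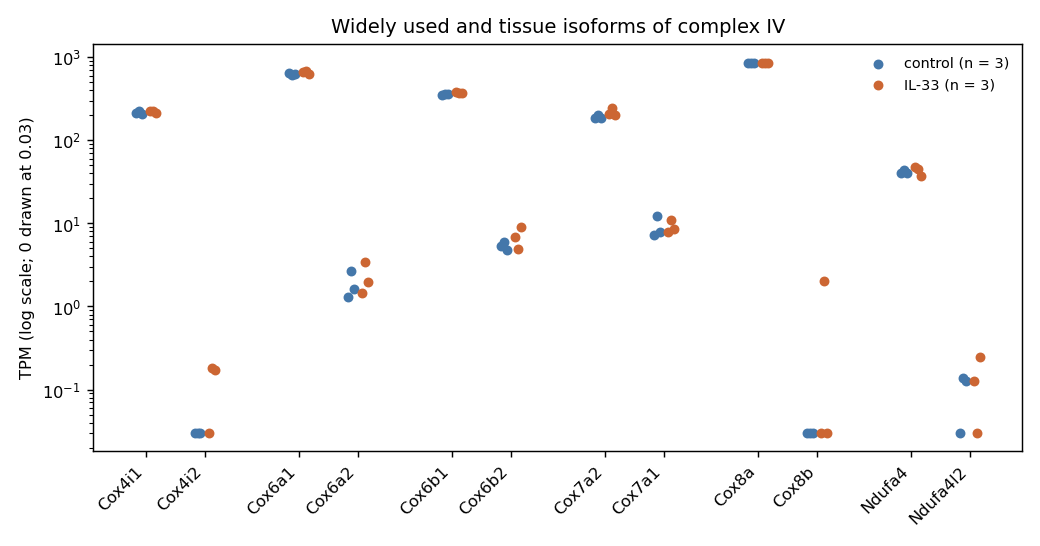
Level in TPM (log scale) of widely used and tissue forms of 6 complex IV subunits in every library; zeros are drawn at 0.03. The widely used form of each pair lies above its tissue form in all 6 libraries.

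The 12 assembly factors, which help to build complexes I and II without staying in them, were low, with a median of 10.6 TPM in controls against 77.6 TPM for nuclear subunits. Of 11 tested, 1 was higher (9.09%, against 13.6% of all genes). This was Sdhaf2, which attaches the flavin to Sdha, with 62.4, 64.3 and 64.7 CPM in controls and 73.6, 71.4 and 70.7 CPM with IL-33, without overlap (0.17, SE 0.047, edgeR adjusted p = 0.00247). Ndufaf1 to Ndufaf8, factors for complex I, ran from -0.14 to 0.18, and none passed. Sdhaf1, at 0 to 0.319 CPM, was not tested.

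Some called members lie across a gene of the opposite strand. Reads from the shared bases of such pairs cannot be told apart when the use of the strand is not known. These pairs were Atp5a1 with Haus1, Atp5d with Cbarp, Atp5f1 with Wdr77, Sdhaf2 with Cpsf7, Uqcrc2 with Pdzd9, Ndufa13 with Tssk6, and mt-Nd5 with mt-Nd6. Atp5f1 also lies across Gm42890, at 0 to 9 counts. mt-Nd5 had 40675 to 48895 counts, against 3561 to 4391 of mt-Nd6. The share of exon bases in a gene on the other strand was 0.768% for mt-Nd5, 1.31% for Sdhaf2 and 3.53% for Atp5d. It was 4.11% for Atp5a1, 8.21% for Atp5f1, 19.7% for Uqcrc2 and 30.0% for Ndufa13. The listed counts of Pdzd9 and Tssk6 were 2 to 26 per library, far below those of their partners. Cpsf7 had more counts than Sdhaf2, with 2122, 2010 and 2216 in controls and 1855, 1800 and 2082 with IL-33.

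The genes around the complexes, taken from lists of assembly and control factors outside the symbol rule, did not move in 1 direction. Of 9 further complex I assembly factors, 0 were higher and 3 were lower (33.3%, against 13.9% of all genes), led by Tmem186 with 23.4 ± 1.43 CPM in controls and 19.1 ± 2.24 CPM with IL-33 (-0.29, SE 0.086, edgeR adjusted p = 0.00548). Of 19 complex IV assembly factors, 2 were higher (10.5%, against 13.6%) and 0 lower. Higd2a, an assembly factor of complex IV, was at 0.27 (SE 0.068, edgeR adjusted p = 0.00111), and Surf1, needed for early steps of complex IV assembly, at 0.20 (SE 0.051, edgeR adjusted p = 0.00158). The ATP synthase assembly factor Tmem70 was the 1 gene higher of 4 in its list, 25.0% against 13.6% of all genes (0.22, edgeR adjusted p = 0.0489). None of the 8 genes of cytochrome c and the partners of complex III passed.

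Of 30 genes that copy, process or translate the mitochondrial genome, 1 was higher and 1 lower (3.33% each). Of all genes, 13.6% were higher and 13.9% lower. Tufm, the mitochondrial elongation factor, had 48.2 ± 2.10 CPM in controls and 58.0 ± 1.54 CPM with IL-33 (0.27, SE 0.054, edgeR adjusted p = 3.44e-05). Lrpprc, which stabilizes mitochondrial mRNAs, went down from 59.6 ± 2.07 to 52.9 ± 1.64 CPM (-0.17, SE 0.053, edgeR adjusted p = 0.00871). The transcription factor Tfam and the mitochondrial RNA polymerase Polrmt were at -0.10 and -0.14 and did not pass (edgeR adjusted p = 0.268 and 0.253). Of 9 nuclear regulators of respiratory genes, 0 were higher and 2 lower (22.2%, against 13.9% of all genes). The 2 were the coactivator Pprc1 (-0.26, SE 0.062, edgeR adjusted p = 0.000412) and the transcription factor Nrf1 (-0.20, SE 0.059, edgeR adjusted p = 0.00571). Ppargc1a had 1 count in 1 library and 0 in the other 5. No gene of these lists that rose or fell reached a fold change of 1.5.

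Because nuclear respiratory genes are known for binding sites of NRF1, YY1 and ETS factors, their promoters were searched. RefSeq promoters (GRCm38.p6, 250 bases before to 50 bases after the start site) were at hand for 77 of the 95 nuclear members. The NRF1 motif GCGCATGCG, on either strand, was found in 10 of 77 (12.99%), against 2.61% of 17492 protein-coding genes. The YY1 motif AAGATGGCG, on either strand, was found in 8 (10.4%, against 2.14%), and the ETS motif CCGGAAG, on either strand, in 21 (27.3%, against 12.9%). The ETS motif ends with the AAG that begins the YY1 motif, so that a match to each can share bases. Windows of 80 bases before the start site are given for the 7 members whose NRF1 match lay wholly upstream, in the direction of transcription, with the match in capitals. In the order given, they lie at chr5:108434405-108434484 (minus strand), chr9:44920913-44920992 (minus strand), chr15:102671048-102671127 (minus strand), chr5:115349076-115349155 (minus strand), chr2:36049339-36049418 (minus strand), chr17:56717667-56717746 (plus strand) and chr4:24897935-24898014 (plus strand).
Atp5k: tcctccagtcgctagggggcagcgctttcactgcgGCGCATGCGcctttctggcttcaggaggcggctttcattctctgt
Atp5l: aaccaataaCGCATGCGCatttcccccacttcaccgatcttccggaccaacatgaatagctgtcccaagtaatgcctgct
Atp5g2: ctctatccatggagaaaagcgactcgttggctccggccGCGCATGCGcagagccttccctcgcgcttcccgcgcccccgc
Cox6a1: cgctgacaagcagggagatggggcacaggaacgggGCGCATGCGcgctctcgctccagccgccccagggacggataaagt
Ndufa8: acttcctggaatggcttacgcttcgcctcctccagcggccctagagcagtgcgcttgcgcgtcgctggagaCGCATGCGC
Ndufa11: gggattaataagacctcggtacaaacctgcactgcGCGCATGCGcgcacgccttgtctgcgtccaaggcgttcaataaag
Ndufaf4: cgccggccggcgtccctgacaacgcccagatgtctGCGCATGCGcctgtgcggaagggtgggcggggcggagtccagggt

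The match began 9 to 241 bases upstream of the start site in these 7 members (Ndufa8 the nearest, Atp5l the farthest). Atp5k and Atp5l code for the small membrane subunits e and g of the ATP synthase, and Ndufa8 and Ndufa11 for accessory subunits of complex I. Log2 fold changes were 0.11 for Atp5k, 0.07 for Atp5l, 0.10 for Atp5g2, 0.08 for Cox6a1, 0.05 for Ndufa8, -0.03 for Ndufa11 and -0.14 for Ndufaf4, and none passed the test. Of the 12 members higher with IL-33 that had a promoter entry, 0 held the NRF1 motif, 0 the YY1 motif and 2 the ETS motif (Sdhaf2 and Sdhd). Among the 65 other members with an entry the shares were 15.4%, 12.3% and 29.2%. A difference from the 12 was not tested. A match describes the letters in the window only, and a window without a match says nothing about the factor.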

How the data were processed

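Total RNA was extracted and made into 6 libraries (3 control, 3 IL-33), and the study calls the result bulk mRNA sequencing. The libraries were grouped by their labels, which name an Illumina TruSeq kit where the study's methods name a NEBNext kit. For each gene the authors deposited raw read counts. The submitters' processing notes name Bowtie 0.12.2 and the build mm8, and no source used here gives the counting program. The authors also deposited 1 column of signal, a mean over all samples, which was not used for any result. Of 26128 Ensembl identifiers, 26072 matched GENCODE M21 (GRCm38), from which symbols, lengths and positions were taken; the build behind the counts was not settled.

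Counts were filtered with filterByExpr (minimum count 10, minimum total 15; 14671 genes kept, 0.110% of counts removed), scaled by TMM and fitted in edgeR (robust quasi-likelihood test, two-sided, no covariates), with p-values adjusted by Benjamini-Hochberg over all genes tested. Calls used an adjusted p of 0.05, beside the study's fold change threshold of 1.5. The common biological coefficient of variation was 0.0468. TPM used the union of a gene's annotated exons as its length, which understates genes with long rare exons. Replicates differed by more than sampling noise. The fits ran in edgeR 4.0.16, DESeq2 1.42.0 and limma 3.58.1 under R 4.3.3, and the main one was tested on simulated data.

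The members, their roles and all lists were chosen with earlier results of these data known. Members named are the mitochondrial genes, the tissue isoforms, complex II, the highest nuclear gene per length and the largest called rise and fall of each complex and of the assembly factors, and, of the other lists, the largest called rise and fall; others were chosen after their values were seen. 1 item that the rule would name is not reported here. Of 111 protein-coding symbols that fit the rule in the annotation, 108 were in the table, and 10 table entries with fitting symbols were not protein-coding and were left out. Limits of detection cover counting error only. Alternatives were DESeq2, limma-voom, other scalings and filters, a replicate block and leaving out each library. The NRF1 motif replaced a form longer by 1 base that had been searched first, which matched fewer members and fewer of all genes, and no called member in either form.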

Additional observations from a re-analysis of the deposited data

How the results depend on the processing

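Between 16 and 23 members were higher under 13 alternatives: 18 with DESeq2, 21 with limma-voom, 20 with the size factors of DESeq2 in edgeR, with scaling that left out the 13 mitochondrial genes or with no filter on low counts, 22 with a filter of 1 CPM in all libraries of a group, and 16 to 23 when 1 library was left out. No member passed both thresholds in any of them, nor when the fold change threshold was itself the null of the test. The count of lower members ran from 0 to 1 when 1 library was left out: without the second IL-33 library, Ndufs3, a core subunit of complex I, was lower (log2 fold change -0.38, edgeR adjusted p = 0.0386). Leaving out 1 library moved the median log2 fold change from 0.0329 to 0.0747 for nuclear subunits and from 0.109 to 0.16 for mitochondrial subunits.

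The numbers 1 to 3 of the labels showed little sign of pairing: deviations of same-numbered libraries correlated at 0.0116, 0.00317 and 0.0107. Differently numbered libraries gave -0.0138 to 0.00287, below each same-numbered value, so these values do not settle whether a weak pairing exists. With the number as a replicate block, 19 members were higher and 0 lower, and Cox5b lost its call (adjusted p = 0.0663).

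With summed CPM in place of TPM, the nuclear subunits were 4.70% higher, complex I 3.81% and the ATP synthase 6.01%. CPM was scaled by TMM and TPM was not, and TPM also divides by gene length. The part of each in the difference was not tested. When 1 library was left out, the summed TPM of complex I ran from -0.0314% to 2.84%, and that of complex III from -1.52% to 1.97%. Of the 20 members called, 15 kept their call in all 13 alternatives, and Atp5a1, Cox5b, Cox7a2, Cox7c and Ndufa13 did not; DESeq2 did not call Cox5b (adjusted p = 0.127) or Ndufa13 (0.0938). mt-Cytb was called by limma-voom (adjusted p = 0.0102) and with the filter of 1 CPM (0.0473), mt-Nd4 with no filter (0.000372) and Atp5g2 with that of 1 CPM (0.045). Of the 23 members without a call that the naming rule took, 19 stayed so in all alternatives in which they were tested (11 for mt-Nd3). Cox4i2, Cox8b, Ndufa4l2 and mt-Atp8 lay at or near 3 counts or below, where no change could be read.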
